A study of Mus musculus with 7 samples.

Results

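The transcription factors described here are 8 regulators of intestinal, pancreatic and foregut identity, Cdx1, Cdx2, Pdx1, Hnf4g, Klf5, Atoh1, Spdef and Neurog3, read by 10 of the 41138 probes of a mouse whole-genome array and making up 8 of 27583 genes and unnamed probes. A probe was taken when the array files, or the current symbol of its accession, named it as 1 of these genes, and the genes were picked with their levels on these same arrays known, so their own values are given as a description without a test. RNA was measured on 7 one-colour Agilent arrays of C57BL/6 mouse cells. Of these, 3 held induced hepatocyte-like cells (iHep), which are fibroblasts turned towards a liver state by added transcription factors, and 1 held hepatocytes from adult livers. The other 3 held fibroblasts from embryos at 13.5 days post coitum (MEF). The iHep cells came from MEFs and were labelled 4α1, 4α2 and 4α3, called types 1, 2 and 3 below, with 1 array per type. The factors added in this work are known to be Hnf4a together with Foxa1, Foxa2 or Foxa3. The labels do not say what the last digit stands for, nor whether an array held 1 clone or a mixed culture, and whether the probes read the introduced transcripts is not known from them.

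CDX1 and CDX2 are caudal-type homeobox factors that set intestinal identity in the endoderm, and PDX1 is the homeobox factor of the pancreas and duodenum. HNF4G, a nuclear receptor related to HNF4A, and KLF5, a zinc-finger factor of proliferating crypt cells, act broadly in gut epithelium. ATOH1 starts the secretory lineage of the intestine, SPDEF matures its goblet and Paneth cells, and NEUROG3 starts endocrine cells of gut and pancreas. Adult liver arises from neighbouring foregut endoderm, and hepatocytes are not known for CDX2 or PDX1.

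The levels of Cdx2, Pdx1 and Spdef were well above background in every iHep type and in no MEF array, so the stretch upstream of their start sites is shown for these 3 genes. Each is the 250 bases before the start of the gene in RefSeq, build GRCm38.p6, printed 5′ to 3′ on the strand of the gene. Capitals mark matches to any of 5 motifs searched on both strands, CAAAGTCC for HNF4, TGTTTAC for FOXA, TTTATGG for CDX, AGATAA for GATA and CACGTG for an E-box. Cdx2 lies at chr5:147307250-147307499 on the minus strand, Pdx1 at chr5:147269847-147270096 on the plus strand and Spdef at chr17:27728952-27729201 on the minus strand.
Cdx2: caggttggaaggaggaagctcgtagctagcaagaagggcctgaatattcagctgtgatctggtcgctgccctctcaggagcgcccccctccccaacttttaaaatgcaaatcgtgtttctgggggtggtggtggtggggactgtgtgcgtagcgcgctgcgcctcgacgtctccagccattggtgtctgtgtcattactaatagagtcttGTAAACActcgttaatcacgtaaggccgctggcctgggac
Pdx1: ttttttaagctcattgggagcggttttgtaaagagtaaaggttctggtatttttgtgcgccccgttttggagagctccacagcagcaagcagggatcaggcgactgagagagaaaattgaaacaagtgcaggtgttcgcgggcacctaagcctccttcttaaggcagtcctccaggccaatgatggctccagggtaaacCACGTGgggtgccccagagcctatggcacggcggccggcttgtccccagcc
Spdef: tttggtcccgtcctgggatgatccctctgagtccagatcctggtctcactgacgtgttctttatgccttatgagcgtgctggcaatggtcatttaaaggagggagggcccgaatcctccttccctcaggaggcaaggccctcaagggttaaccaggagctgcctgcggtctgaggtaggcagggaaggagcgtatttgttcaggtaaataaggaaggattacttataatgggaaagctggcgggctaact
The window of Cdx2 held 1 match, GTAAACA, which is the FOXA motif on the other strand, with its first base at position -40 from the start. The FOXA motif occurred in 3.17% of the 32851 promoter windows of the same length. The Pdx1 window held 1 match, the E-box at position -51, a motif found in 6.02% of windows. No window among these 3 held the HNF4 motif (1.20% of all windows), the CDX motif (2.43%) or the GATA motif (9.99%), and the Spdef window held none of the 5. In the windows of Atoh1 and Neurog3, examined the same way, the only match was a GATA motif at position -32 of Neurog3. The windows of Cdx2, Pdx1 and Spdef were 55.2%, 54.8% and 52.8% G and C with 13, 10 and 7 CG dinucleotides, against medians of 52.4% and 6 over all windows. A match describes the letters and is no evidence of binding.

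Levels below are on a log2 scale with 0 at the 75th percentile of each array's signal, and they compare arrays for 1 probe and not probes with each other. A probe is called well above background by the flag of the scanner software. That percentile was a signal of 625 to 1585, and the share of probes well above background was 60.2% to 68.7%. MEF 2 and MEF 3 agreed within the noise of repeated spots and were counted as 1 sample, which leaves iHep n = 3, hepatocyte n = 1 and MEF n = 2. The 3 iHep arrays shared a slide with MEF 1, MEF 2 and MEF 3 were on another, and the hepatocyte array was alone on its slide, so slide and group cannot be told apart for it. The markers of each label were present, those of hepatocytes only in part in iHep. Of 12 tested, 5 were higher in iHep than in MEF (adjusted p under 0.05 by limma). Over all 12 the median difference between iHep and hepatocyte was -8.1. For the 5 called higher it ran from -7.83 (Ttr) to -1.66 (Apoa1). Hepatocyte markers were well above background for 9 to 10 of 12 on iHep arrays with a summed linear level (in units of the 75th percentile) of 242 to 935, for 12 of 12 at 3573 on the hepatocyte array and for 4 of 12 at 2.03 to 2.33 on MEF arrays. Fibroblast markers were well above background for 14 to 15 of 15 with summed levels of 55.3 to 162 on iHep arrays, for 10 of 15 at 11.7 on the hepatocyte array and for all 15 at 868 to 961 on MEF arrays. Macrophage and blood markers reached 6.43 to 15.6 on iHep arrays (4 to 5 of 11), 9.95 on the hepatocyte array (11 of 11) and 67.0 to 105 on MEF arrays (10 to 11 of 11). Intestinal epithelium markers reached 338, 230 and 847 in iHep types 1, 2 and 3 (7 to 8 of 10). They reached 39.0 on the hepatocyte array (10 of 10) and 0.651 to 1.89 on MEF arrays (5 to 6 of 10). Such a sum is weighted towards the brightest genes. The median level of these markers was -2.70, -1.67 and -2.40 in iHep types 1, 2 and 3. It was higher on the hepatocyte array, at -0.81, and -5.48 to -5.19 on MEF arrays.

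Of the 8 genes, 3 (Cdx2, Pdx1 and Spdef) were well above background on all iHep arrays and on no MEF array, a pattern shown by 1.10% of all 27583 genes and unnamed probes. Of these, Cdx2 and Pdx1 were not well above background on the hepatocyte array either, a pattern of 0.442% of all. Klf5, Hnf4g and Neurog3 were well above background on all 7 arrays, as were 50.3% of all, and Cdx1 and Atoh1 on none, as were 23.8%. Because the genes were picked with these values known, nothing is read from the counts against those shares.

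**Figure D1:**
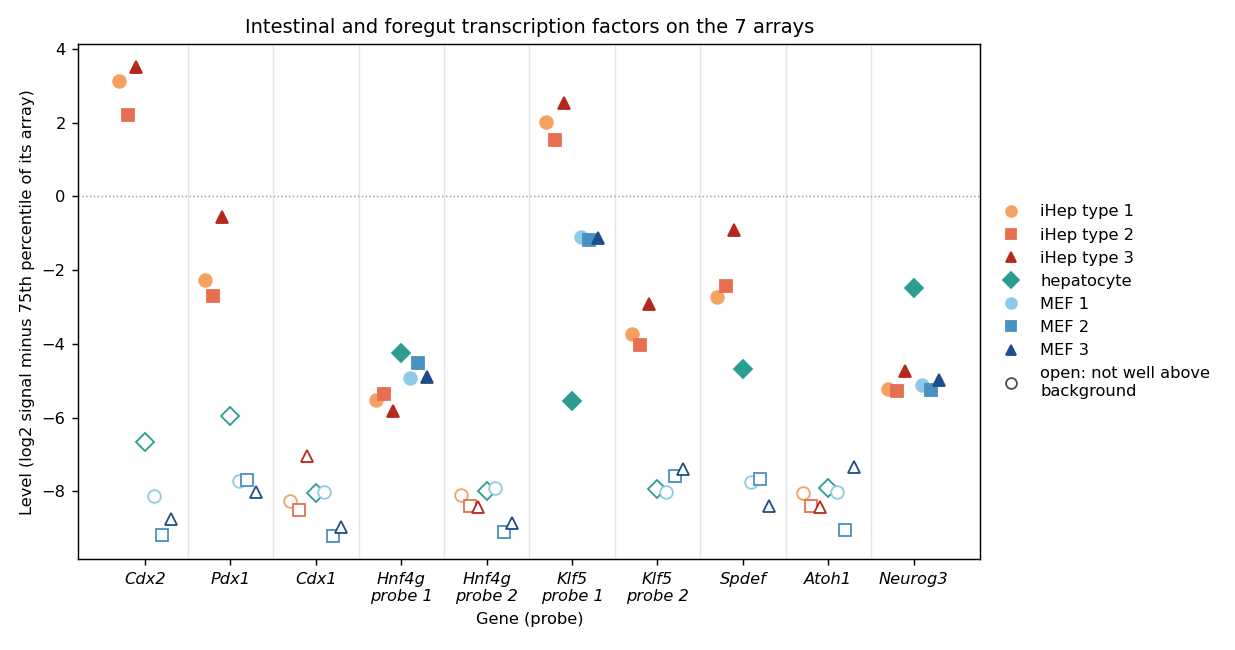
Levels of the 10 probes of the 8 transcription factors on each array, in log2 units relative to the 75th percentile of signal on that array, with iHep types first, then the hepatocyte array and the MEF arrays. Each point is 1 array, and open points were not well above background. The 3 iHep points of Cdx2 lie between 2.22 and 3.50 while its 3 MEF points lie between -9.18 and -8.14.

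The caudal homeobox genes differed from each other on the iHep arrays. The Cdx2 probe (NM_007673) lies at chr5:147611320-147611379 on the minus strand in build mm8, the build of the array's annotation. Its level was 3.14, 2.22 and 3.50 in iHep types 1, 2 and 3, -6.65 on the hepatocyte array and -8.14, -9.18 and -8.75 on MEF arrays 1, 2 and 3. Every iHep array put this probe above the 75th percentile of its array, and no other array had it well above background. The processed signal behind these levels was 6745, 4210 and 9397 in the iHep types, 6.24 on the hepatocyte array and 3.03, 2.74 and 3.50 on the MEF arrays. The fitted difference was 11.51 ± 0.48 (log2, SE) between iHep and MEF, and 9.60 ± 0.60 between iHep and hepatocyte. With normexp background correction, which adds a constant to every signal and so narrows differences of dim probes, these were 6.79 and 6.36. Since the dimmer groups give only a bound, Cdx2 was at least 613.6-fold higher in iHep than in MEF and at least 431-fold higher than in hepatocytes. Such a bound sets the mean iHep level against, on each dim array, the higher of the probe's own level and the lowest level well above background there.

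Cdx1, the paralogue that overlaps CDX2 in intestinal expression, was not well above background anywhere (NM_009880). Its level was -8.26, -8.50 and -7.04 in iHep types 1, 2 and 3, -8.06 on the hepatocyte array and -8.03, -9.21 and -8.96 on the MEF arrays. The arrays of the groups overlap, and no fold is given. Cdx4, the remaining caudal gene, was likewise well above background on no array, with levels of -8.46 to -8.15 in iHep, -7.96 in hepatocytes and -9.11 to -7.99 in MEF.

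Pdx1 followed the same division of arrays as Cdx2 (NM_008814, probe at chr5:147585343-147585402, plus strand, mm8). Its level was -2.26, -2.70 and -0.56 in iHep types 1, 2 and 3, -5.96 on the hepatocyte array and -7.73, -7.69 and -8.03 on the MEF arrays. The iHep arrays did not overlap the others, and type 3 stood above types 1 and 2. The fitted difference was 5.96 ± 0.67 between iHep and MEF and 4.12 ± 0.85 between iHep and hepatocyte, and the bounds were at least 22.1-fold and at least 15.5-fold. With normexp the differences were 2.23 and 1.80. In these RNA samples of whole cultures, fewer cells with a transcript and less transcript per cell cannot be told apart.

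Pdx1 and Cdx2 are neighbours in the ParaHox cluster, a small group of homeobox genes that also holds Gsx1, a factor of the developing brain. Their probes are 25.9 kb apart on the array's build. Within 250 kb of the Cdx2 probe the array had 18 probes of 13 genes, a window chosen after the data had been seen, and 3 of these probes differed by more than 2 log2 units between iHep and MEF. These were Cdx2, Pdx1 and Plut, a long noncoding transcript next to Pdx1. Plut had a level of -6.92, -8.26 and -3.36 in iHep types 1, 2 and 3, -6.90 on the hepatocyte array and -7.99, -8.93 and -8.67 on the MEF arrays. It was well above background on the type 3 array alone, which is also the highest of the 7 arrays for Pdx1. TC1686515, a transcript with no gene name between the Plut and Pdx1 probes, differed by 1.61, under that cut. Its level was -6.18, -7.47 and -4.32 in iHep types 1, 2 and 3, and it was well above background on 1 iHep array and no other. Gsx1, between Plut and the far end of the window, was well above background on all 7 arrays and differed by -0.27 ± 0.17 between iHep and MEF (adjusted p = 0.31). Flt3, a receptor kinase of blood progenitors on the other side of Cdx2, differed by -0.34 ± 0.34 (adjusted p = 0.499).

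Over a wider list of 17 neighbours tested, 4 rose in iHep against MEF, 1 fell and 12 did not pass the test, with a median difference of -0.01 against -0.05 over all 19133 genes tested. A call is an adjusted p under 0.05 by limma, and across all genes tested 10.0% were called higher and 13.3% lower in iHep than in MEF. Rasl11a, a small GTPase, rose by 1.93 ± 0.18 (adjusted p = 0.0034) and Slc46a3, a lysosomal transporter, by 1.73 ± 0.44 (adjusted p = 0.0476). Wasf3, an actin regulator, fell by 2.89 ± 0.38 (adjusted p = 0.00845). Pan3, part of a deadenylase, rose by 0.72 ± 0.17 (adjusted p = 0.0405), while Flt1, a vascular growth factor receptor, differed by -1.82 ± 1.21 (adjusted p = 0.329). Against MEF 1 alone, on the shared slide, 1 of the 17 was called, higher in iHep, and without MEF 1 there was 1 call each way. The calls of Slc46a3 and Pan3 were lost in both, and that of Wasf3 within the slide.

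**Figure D2:**
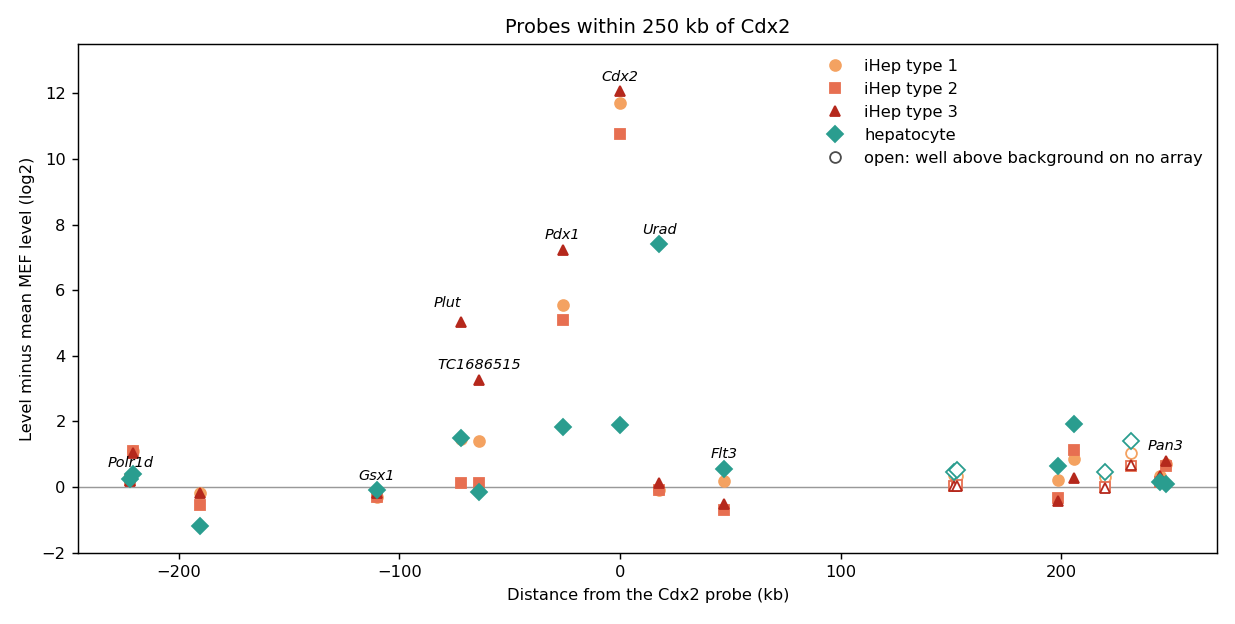
Level of each probe within 250 kb of the Cdx2 probe minus its mean level over the 2 MEF samples (log2), for each iHep type and the hepatocyte array, by distance in kb. Probes drawn open were well above background on no array. Cdx2 and Pdx1 stand above 0 in all 3 iHep types, and Plut stands out in type 3.

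Hnf4g showed no such pattern. Its brighter probe (NM_013920, chr3:3642828-3642887, plus strand, mm8) had a level of -5.52, -5.37 and -5.83 in iHep types 1, 2 and 3, -4.24 on the hepatocyte array and -4.93, -4.51 and -4.91 on the MEF arrays. All iHep arrays lay below all MEF arrays, and the hepatocyte array was highest. The fitted difference was -0.75 ± 0.22 between iHep and MEF, which is 1.69-fold lower in iHep, and -1.34 ± 0.28 between iHep and hepatocyte, which is 2.53-fold lower. With normexp background correction the differences from MEF and from hepatocyte were -0.17 and -0.44. The second probe (AK136534, chr3:3645351-3645410) was well above background on no array and differed by 0.14, the opposite sign. Signals of the brighter probe were 14.6 to 21.8 in iHep, 33.2 in hepatocytes and 28.0 to 69.8 in MEF.

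Klf5 was the only one of the 8 genes that was well above background in fibroblasts and lay higher again on every iHep array. Its brighter probe (NM_009769, chr14:98186571-98196303, plus strand, mm8, annotated over 9733 bases) had a level of 2.02, 1.54 and 2.53 in iHep types 1, 2 and 3, -5.55 on the hepatocyte array and -1.11, -1.17 and -1.12 on the MEF arrays. All 7 values were well above background, the groups did not overlap, and the hepatocyte array was lowest. The fitted difference between iHep and MEF was 3.16 ± 0.33, or 8.94-fold. Klf5 was 191.9-fold higher in iHep than in hepatocytes (7.58 ± 0.42) and 21.5-fold lower in hepatocytes than in MEF (-4.42 ± 0.44). With normexp these 2 differences were 5.19 and -2.27. The second probe (BC006646, chr14:98188052-98188111) was well above background in the 3 iHep types alone, at levels of -3.73, -4.02 and -2.91, against -7.93 on the hepatocyte array and -8.01, -7.59 and -7.40 on the MEF arrays. It put iHep at least 6.74-fold above MEF and at least 4.74-fold above hepatocytes. It gave no measured difference between hepatocytes and MEF, where it was below background in both.

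Among the secretory lineage genes, Spdef stood with Cdx2 and Pdx1. The Spdef probe (NM_013891, chr17:27442294-27442353, minus strand, mm8) had a level of -2.74, -2.43 and -0.91 in iHep types 1, 2 and 3, -4.68 on the hepatocyte array and -7.75, -7.67 and -8.39 on the MEF arrays. The groups did not overlap, with hepatocytes between the other groups and well above background. The fitted difference was 5.86 ± 0.59 between iHep and MEF, at least 19.4-fold. It was 3.21 ± 0.79 between hepatocyte and MEF, at least 3.09-fold, and 2.65 ± 0.75 between iHep and hepatocyte, 6.28-fold. With normexp these differences were 1.96, 0.65 and 1.31.

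Atoh1, which acts ahead of Spdef in the gut, was well above background on no array (NM_007500, chr6:64659497-64659556, mm8). Its level was -8.06, -8.39 and -8.43 in iHep, -7.91 on the hepatocyte array and -8.02, -9.06 and -7.33 on the MEF arrays. Neurog3 was measured everywhere but did not separate iHep from MEF (NM_009719, chr10:61529179-61529238, plus strand, mm8). Its level was -5.22, -5.28 and -4.74 in iHep types 1, 2 and 3, -2.49 on the hepatocyte array and -5.13, -5.25 and -4.97 on the MEF arrays. The iHep and MEF arrays overlapped, with a fitted difference of 0.04 ± 0.24, and the hepatocyte array lay above all 6 others. Neurog3 was 6.19-fold higher in hepatocytes than in MEF (2.63 ± 0.32) and 6.02-fold lower in iHep than in hepatocytes (-2.59 ± 0.30), differences that were 1.36 and -1.42 with normexp.

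Counted over the genes, 6 of the 8 passed the filter of being well above background on every array of a group, which Cdx1 and Atoh1 did not. Of those 6, Cdx2, Pdx1, Klf5 and Spdef had all 3 iHep arrays above all 3 MEF arrays, an arrangement of 24.9% of the 19133 genes tested. Hnf4g had all iHep arrays below all MEF arrays, an arrangement of 31.4%. Cdx2, Pdx1, Klf5 and Spdef also had all iHep arrays above the hepatocyte array (37.4% of genes), while Hnf4g and Neurog3 had the hepatocyte array above all 6 others (40.7%) and Klf5 had it below all 6 (31.1%). The filter and the choice of genes both favour such arrangements, and the 3 comparisons share arrays.

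Levels of these genes differed among the iHep types, with 1 array each. Type 3 had the highest level of Cdx2, Pdx1, Spdef and both Klf5 probes, as did 46.6% of the 4535 genes that were well above background on all iHep arrays and above MEF on each of them. The order type 3, type 1, type 2 held for Cdx2, Pdx1 and Klf5 (24.6% of those genes), and Spdef had type 2 ahead of type 1. Type 3 was above type 2 by 2.43-fold for Cdx2, 4.41-fold for Pdx1, 1.99-fold for Klf5 and 2.86-fold for Spdef. Relative to MEF 1 on the same slide, Cdx2 was higher by 11.28, 10.36 and 11.65 in types 1, 2 and 3, and Pdx1 by 5.48, 5.03 and 7.18. The differences among types have no replicate check. Fibroblast markers were also lowest on the type 3 array, with a summed level of 55.3 against 156 and 162 in types 1 and 2, and hepatocyte markers were lowest there too, at 242 against 634 and 935. Whether either plays a part in the order of the types was not tested.

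The genes nearest to each factor over the 7 arrays were found by Euclidean distance between levels, after raising each level to the lowest one well above background on its array. Such a distance also reads how bright each probe is, which centring each gene on its own mean over the arrays removes. For Cdx2 these were Smgc at a distance of 0.66, Mlph at 0.88 and Lrrc26 at 0.99, and the same 3 came out with centred levels. Smgc had a level of 3.49, 1.72 and 3.74 in iHep types 1, 2 and 3, -8.09 on the hepatocyte array and -8.13, -9.20 and -8.96 on the MEF arrays. Pdx1 was nearest to Fxyd3 (0.68), Myrip (0.73) and Capn9 (0.93), and Spdef to Trim15 (0.83), Ly6m (1.01) and Trim31 (1.17). The nearest genes to Klf5, Thsd4 (1.24), Gcnt1 (1.28) and Foxf2 (1.59), lay at distances over 1, and with centred levels a transcript with no gene name, TC1614884, was nearest at 0.56. Hnf4g lay near Pla2g3 (0.56) and an unnamed probe (0.64). Neurog3 lay near Prok1 (0.58) and Ccdc78 (0.59). For Hnf4g and Neurog3 centring gave other genes, led by Rad23b (0.32) and Shld2 (0.20).

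Other transcription factors of gut and foregut moved in both directions in iHep. Of 44 listed, 39 were tested, and 11 rose against MEF, 5 fell and 23 did not pass, with a median difference of 0.81 against -0.05 over all genes. Elf3, an ETS factor of differentiating epithelium, rose by 9.43 ± 0.79, at least 139.9-fold (adjusted p = 0.00268). Its levels were 0.02, 0.18 and 2.27 in iHep, -5.27 in hepatocytes and -8.12, -9.21 and -8.97 in MEF. Hnf4a, the factor introduced to make the cells, rose by 7.80 ± 1.25, at least 51.7-fold (adjusted p = 0.014). Isx, an intestine-specific homeobox gene, rose by 3.96 ± 0.76, at least 3.43-fold (adjusted p = 0.0225). Smaller rises were those of Gata6 (1.70, adjusted p = 0.0222), Klf4 (1.56, adjusted p = 0.0278) and Sox9 (1.50, adjusted p = 0.00888), a zinc-finger factor of endoderm, a KLF5 paralogue and a factor of crypt and duct progenitors. Sox2, a factor of stomach and oesophagus, fell by 3.17 ± 0.46 (adjusted p = 0.0108). Gata4 differed by 1.24 ± 0.34 (adjusted p = 0.0573). Of the 44 factors, 15 also stand on another list used here.

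Against MEF 1 within the shared slide, 4 of these factors were called higher and 1 lower, and without MEF 1, 5 and 3. The calls of Hnf4a, Isx, Gata6 and Klf4 were lost both within the slide and without MEF 1, and those of Sox2 and Sox9 within the slide. The list also moved in hepatocytes, with 15 factors higher than in MEF and 6 lower, where 29.2% and 24.4% of all genes tested were called. Between iHep and hepatocytes 10 were higher in iHep and 11 lower, beside 21.5% and 28.3% of all genes.

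Paralogues of the 8 factors were a mixed group, with 9 of 34 tested higher in iHep than in MEF, 4 lower and 21 not passing (median 0.28). Elf3 and Hnf4a, given above, rose most. The KLF5 relatives Klf8 and Klf14 fell by 4.58 ± 0.20 (adjusted p = 0.000594) and 3.74 ± 0.59 (adjusted p = 0.0135), Klf14 to below background in iHep. Within the shared slide the counts were 4 higher and 3 lower, and the same without MEF 1.

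**Figure D3:**
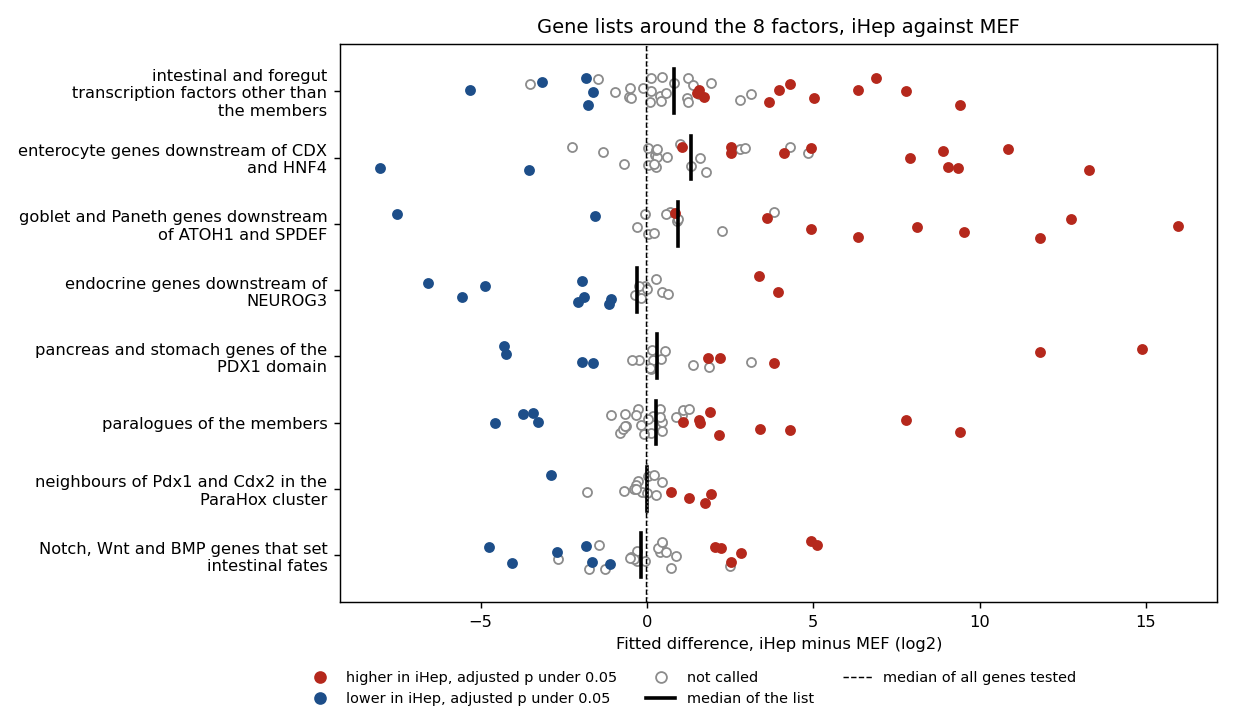
Fitted difference between iHep and MEF (log2) of each tested gene on 8 lists, filled red where higher and blue where lower at an adjusted p under 0.05, and open where not called. Thick bars are list medians, from -0.30 for endocrine genes to 1.31 for enterocyte genes, and the dashed line is the median of all genes tested, -0.05.

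Enterocyte genes that lie downstream of CDX and HNF4 factors were in part higher in iHep. Of 33 tested, 11 were called higher than in MEF, 2 lower and 20 not called, with a median of 1.31, or 1.05 with genes below background in MEF or iHep set at their bound, and 0.30 with normexp. Bile duct markers, which mark the other epithelium of the liver, were higher in 4 of 8 tested and lower in 2 (median 3.56). Epcam, an epithelial adhesion protein among them, rose by 8.64 ± 0.69 (adjusted p = 0.00232). The 2 lower were Aqp1, at -6.30 ± 1.16 (adjusted p = 0.0207), and Spp1, at -3.38 ± 0.37 (adjusted p = 0.00505). The part of bile duct markers in the rise of enterocyte genes was not tested. Vil1, the actin bundler of microvilli, rose by 13.28 ± 0.74, at least 2359-fold (adjusted p = 0.00101). Muc13, a membrane mucin, rose by 10.85 ± 0.78, at least 441-fold (adjusted p = 0.00176). Levels of Vil1 were 3.74, 4.76 and 6.19 in iHep types 1, 2 and 3, -0.60 on the hepatocyte array and -8.12, -8.44 and -8.86 on the MEF arrays. Cdh17, an intestinal cadherin that CDX2 is known to activate, rose by 2.51 ± 0.42 (adjusted p = 0.0156). Enpep and Anpep, brush-border aminopeptidases, fell by 8.03 ± 0.23 (adjusted p = 0.000371) and 3.55 ± 0.42 (adjusted p = 0.00651).

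Sis, the sucrase-isomaltase that CDX2 is known to switch on, was called at 1.05 ± 0.23 (adjusted p = 0.0324), but no iHep or MEF array had its probe well above background, so no fold is given. Alpi, intestinal alkaline phosphatase, differed by 0.03 ± 0.24 (adjusted p = 0.938). Within the shared slide 5 enterocyte genes were called higher and 2 lower, as without MEF 1, and the calls of Cdh17 and Sis were lost in both, that of Anpep without MEF 1. Of the 33, 23 were called higher in hepatocytes than in MEF. Between iHep and hepatocytes 5 were higher in iHep, Vil1 and Muc13 among them, and 17 lower.

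Goblet and Paneth genes downstream of ATOH1 and SPDEF rose in 9 of 21 tested, fell in 2 and did not pass in 10, with a median of 0.94. The median was 1.66 without iHep 1 and 2.24 with the mean of all probes of a gene. Tff3, a trefoil peptide of goblet cells, rose by 15.96 ± 0.66, at least 17510-fold (adjusted p = 0.000591). Clca1, a goblet secretory protein, rose by 12.76 ± 0.57, at least 5417-fold (adjusted p = 0.000594). Muc2, the main goblet mucin, differed by 0.69 ± 0.41 (adjusted p = 0.276) and was below background on all iHep and MEF arrays. Lyz1, the lysozyme of Paneth cells, fell by 7.52 ± 1.10 (adjusted p = 0.0111) and Creb3l4, a bZIP factor, by 1.58 ± 0.28 (adjusted p = 0.0181). On the hepatocyte array Tff3, Clca1 and Muc2 differed from MEF by 7.71, 6.56 and 4.26, and Lyz1 and Creb3l4 by -3.93 and -2.45. The list median between hepatocyte and MEF was 1.42. Lyz1 has a near-identical copy, Lyz2, that macrophages express, and the probe may not tell them apart. Of 11 macrophage and blood markers tested, 8 were lower in iHep, 1 was higher and 2 were not called. Adgre1 fell by 8.10 ± 0.43 (adjusted p = 0.000888) and Cd14 rose by 4.65 ± 0.47 (adjusted p = 0.00425), and their part in the fall of Lyz1 was not tested. Within the shared slide 8 of the list were called and all were higher, and without MEF 1 the counts were the same, with Lyz1 and Creb3l4 no longer called.

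Endocrine genes downstream of NEUROG3 were more often lower. Of 29 listed, 18 were tested, and 2 rose in iHep against MEF, 8 fell and 8 did not pass, with a median of -0.30. Sct, the hormone secretin, rose by 3.95 ± 0.22 (adjusted p = 0.00101) and Pcsk1, a prohormone convertase, by 3.38 ± 0.35 (adjusted p = 0.00458). Cck, the hormone cholecystokinin, fell by 6.60 ± 0.30 (adjusted p = 0.000594). Of 6 neural markers tested, 4 were lower in iHep than in MEF, 0 were higher and 2 were not called (median -2.86). The part of neural transcripts in the falls of this list was not tested. Neurod1, the direct target of NEUROG3, was well above background on no array, and Chga, the granule protein chromogranin A, differed by 0.46 ± 0.68 (adjusted p = 0.66). Within the shared slide 2 were higher and 3 lower, and without MEF 1, 2 and 4.

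Pancreas and stomach genes of the domain in which PDX1 acts rose in 5 of 20 tested, fell in 4 and did not pass in 11, with a median of 0.30. The rises included stomach genes. Gkn2, a gastrokine, rose by 14.88 ± 0.46, at least 7171-fold (adjusted p = 0.000397). Tff1, a stomach trefoil peptide, rose by 11.83 ± 1.03, which is 3635-fold (adjusted p = 0.00292), with its probe well above background on 2 of the 3 MEF arrays. Cela1, a pancreatic enzyme gene, was among the falls, lower by 4.29 ± 0.46 (adjusted p = 0.00507) and below background on every iHep array. Nkx6-1, a beta-cell homeobox factor, fell by 1.62 ± 0.40 (adjusted p = 0.0443), Ptf1a, the acinar factor, differed by 0.13 ± 0.34 (adjusted p = 0.812), and Gkn1 was not well above background anywhere. Within the shared slide 3 were higher and 2 lower, and without MEF 1, 2 and 2, with the call of Nkx6-1 lost in both.

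**Figure D4:**
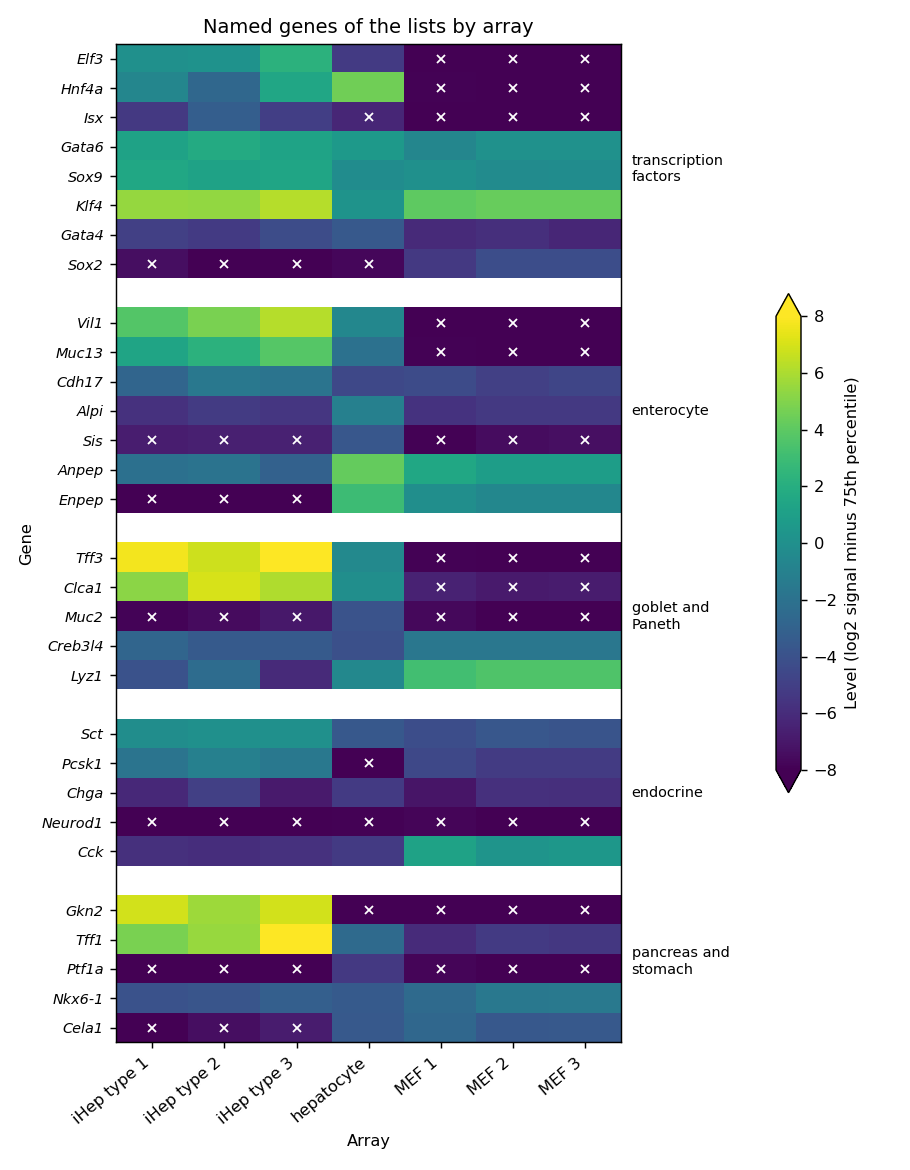
Level of named genes of 5 lists on each array, in log2 units relative to the 75th percentile of its array, with colours ending at -8 and 8. Crosses mark groups in which the probe was well above background on no array. Colours compare arrays along a row and not genes with each other, and Vil1, Tff3 and Gkn2 are bright in all 3 iHep types.

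Signalling genes that set intestinal cell fates were balanced, with 6 of 30 tested higher in iHep than in MEF, 6 lower and 18 not passing (median -0.19). The Notch ligands Jag2 and Dll4 rose by 5.12 ± 0.78 (adjusted p = 0.0122) and 4.92 ± 0.33 (adjusted p = 0.00149), Dll4 at least 14.8-fold. Ephb2, a crypt receptor kinase, fell by 4.76 ± 0.49 (adjusted p = 0.00434) and Nkd1, a Wnt feedback gene, by 4.07 ± 0.78 (adjusted p = 0.0232). Hes1, the Notch target that restrains Atoh1, differed by 0.38 ± 0.37 (adjusted p = 0.503). Within the shared slide 3 were higher and 1 lower, and without MEF 1, 2 and 1, with the call of Nkd1 lost in both and that of Jag2 without MEF 1.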

How the data were processed

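Scanner images were quantified by Agilent Feature Extraction 9.5.1.1, per the file headers. The authors deposited a processed signal per spot, an intensity not scaled between arrays, and mean and background intensity values, which served 1 alternative. Deposited flags of 0 or 1 (unit other) mark spots. How the authors' deposited value table was scaled is not stated in its header, and it served as an alternative.

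Outlier spots (66 to 104 of 43379 on an array) were dropped, repeated spots averaged, and the brightest probe stood for a gene. A limma model (version 3.58.1, R 4.3.3; lmFit and eBayes, 3 groups in 1 fit) was fitted over the 19133 genes well above background on every array of a group, with Benjamini-Hochberg adjustment, and was tested on simulated data. Errors are standard errors. The hepatocyte group has 1 array, whose spread was taken from the other groups. MEF 2 and MEF 3 differed by 0.506 to 0.912 times the SD that repeated spots predict (MEF 1 and MEF 2 by 3.88 to 4.54 times). The number of arrays limits the precision. The 3 iHep samples in the fit are 3 types with 1 array each, so no type is replicated, and the 2 MEF samples lie on different slides. A p reflects only the spread between samples, which holds these differences and may be technical.

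The 8 genes and the lists were chosen with earlier results of these data known. Other named genes are the 3 nearest to each of the 8, the 2 largest rises and falls called per list, and genes listed with each list; some of these are not reported here. Alternatives covered scaling, background correction, filters, probe choice, slide and arrays left out.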

Additional observations from a re-analysis of the deposited data

How the results depend on the processing

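The count of genes called between iHep and MEF, 4464, depended on the choice of samples. It was 7310 with 3 separate MEF samples (3149 higher, 4161 lower). The fit within the shared slide took MEF 1 and the 3 iHep arrays, with no block term. For iHep against MEF it gave the same result as the fit without MEF 2 and MEF 3, so these are not 2 separate checks. With arrays left out it ran from 1617 to 4641, lowest without MEF 1, and 1653 without MEF 2 and MEF 3. It was 2872 without iHep 1. All 54 named genes called kept their direction in every fit with arrays left out. With an iHep array left out 46 to 51 of them kept the call, and with a MEF sample left out more calls were lost. These genes were chosen as called, many for the largest changes, and the fits share arrays. The kept directions are therefore no independent support. Replicate numbers are shared by MEF and iHep in name only. The deviations of same-numbered MEF and iHep arrays from the mean of their own group correlated over genes at 0.0291, -0.0153 and -0.000452. A replicate block, fitted with 3 separate MEF samples, gave 5462 calls (2371 higher, 3091 lower), against 7310 for the same samples without it. Of the fitted differences of the 6 genes with a fitted value, under all alternatives, 206 moved by less than the spread between replicates and 28 by more. The list medians between iHep and MEF ran from 0.39 to 1.17 for other gut and foregut factors, from 0.30 to 1.87 for enterocyte genes, from 0.80 to 2.24 for goblet and Paneth genes, from -0.67 to -0.10 for endocrine genes and from 0.01 to 0.62 for pancreas and stomach genes. Under quantile normalization the median of all genes between hepatocyte and MEF was -0.002, against 0.19. A looser detection flag changed the number of arrays on which 6 of the 10 probes were detected, and put Pdx1 on all 7. Beyond the iHep arrays it also put Cdx2 on MEF 3 and the hepatocyte array, and added MEF 2 and MEF 3 for Spdef and the second Klf5 probe. It put Cdx1 on the iHep type 3 array alone and Atoh1 on MEF 3 alone. Under that flag none of Cdx2, Pdx1 and Spdef was absent from all MEF arrays. Signals near background limit the dim groups to bounds.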

Other observations

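Of 30 genes tested on a list of Notch, Wnt and BMP genes, 13 (43.3%) had their lowest iHep level on the type 3 array, beside 40.2% of all 19133 genes tested. A few Wnt genes, chosen after their values were seen apart from Lgr5, were far lower on that array than on the other iHep arrays. They rest on 1 array, and the difference was not tested. Lgr5, the receptor of intestinal stem cells, had levels of -0.68, 0.86 and -8.37 in iHep types 1, 2 and 3, -1.33 on the hepatocyte array and 0.72, -0.86 and -0.75 on the MEF arrays. Its difference between iHep and MEF was -2.69 ± 2.89 (adjusted p = 0.542). Axin2, a Wnt feedback gene, had levels of -3.73, -2.65 and -6.60 in the iHep types, -1.65 on the hepatocyte array and -2.82, -2.28 and -2.39 on the MEF arrays. Sp5, a zinc-finger Wnt target, had levels of -3.27, -2.03 and -7.98 in the iHep types, -0.89 on the hepatocyte array and -5.19, -8.81 and -8.55 on the MEF arrays. Lef1, a factor of the Wnt pathway, had levels of -1.77, -1.38 and -6.28 in the iHep types, -8.03 on the hepatocyte array and -4.77, -2.16 and -2.23 on the MEF arrays. Tcf7, another factor of that pathway, was lowest on the type 1 array instead, with levels of -6.52, -4.38 and -6.09 in the iHep types, -2.19 on the hepatocyte array and -4.70, -3.64 and -3.84 on the MEF arrays.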
